A study of Rattus norvegicus with 12 samples.

Results

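Reference genes, also called loading-control or housekeeping genes, are the transcripts and proteins against which others are expressed in qPCR and western blots. The 9 described here are Gapdh, Pgk1, Actb, Ywhaz, Ppia, Rplp0, Hprt1, Gusb and Tbp. They were taken by symbol from the table of counts, where all 9 were found among 17494 genes. They were listed for their common use as references and not for their values in these libraries, though earlier results of these data were known by then.

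The counts came from RNA of the hippocampus (in the labels, brain) of wild-type male Long Evans rats, 1 library per rat. All rats had been exposed to 3 blasts at 10 weeks of age in a shock tube and were sacrificed 29 weeks later. The 6 blast-boldine rats (12, 17, 19, 20, 32 and 35) ate chow with 500 mg/kg of boldine, an alkaloid of the boldo tree. The 6 blast-control rats (1, 4, 5, 6, 7 and 9) ate the same chow without boldine. Unexposed rats were not analysed here, so the comparison is that of boldine within blast-exposed rats.

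A gene serves as a reference on the assumption that its level does not move with the treatment, the tissue or the handling of the sample. The usual candidates come from different basic processes, so that no single process moves all of them. Gapdh and Pgk1 are consecutive enzymes of glycolysis, Actb is a subunit of the actin cytoskeleton and Ywhaz is a 14-3-3 adaptor protein that binds phosphorylated partners. Ppia, or cyclophilin A, is a prolyl isomerase that assists protein folding, and Rplp0 is a protein of the ribosomal stalk. Hprt1 salvages purines, Gusb is a lysosomal hydrolase, and Tbp binds the TATA box in the assembly of the basal transcription machinery. The study's blots of hippocampus used GAPDH protein as their denominator, and the transcripts described here say nothing of protein levels.

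Counts on genes summed to between 10148474 and 40850106 in 11 libraries and to 74008 in blast-control rat 6, in which 1 count was worth 15.8 CPM (the usual count per library total, scaled by TMM size factors). The floor of detection was set at 3 counts, equal to 47.5 CPM in rat 6 and to no more than 0.307 CPM elsewhere, and it allows for counting error alone. Each of 6 suffixes is shared by 2 library names, and 4 divisions into 2 sheets use each suffix once per sheet with rat numbers that increase along the suffixes. Of these the one that accounted for most of the first principal component (94.9% of it) was used. Sheet 1 held rats 1, 7, 9, 20, 32 and 35 and sheet 2 held rats 4, 5, 6, 12, 17 and 19, with 3 rats of each group on each. The labels do not name these sheets, and since they were picked by the expression of all genes, differences between them are given as descriptions with no test. All markers of neurons, hippocampal fields, glia and vessels listed for the tissue had counts, and the summed level of 6 markers of hippocampal fields lay between 949 and 1310 CPM in the 11 libraries.

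All coordinates of the counted exons are those of mRatBN7.2. Pgk1 lies at chrX:71271454-71287429 (+ strand, 11 exons), Hprt1 at chrX:132736175-132768149 (+, 9 exons) and Ywhaz at chr7:67941353-67963651 (-, 6 exons). Chromosome 12 holds 3 of the genes, Actb at chr12:11663112-11666082 (+, 6 exons), Gusb at chr12:26701200-26714716 (+, 12 exons) and Rplp0 at chr12:41054364-41057632 (-, 7 exons). Ppia lies at chr14:81279292-81282960 (+, 5 exons) and Tbp at chr1:56463618-56480428 (+, 8 exons). No exon of the 9 genes shared a base with an exon of another gene in the table.

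The row of Gapdh differed from the other 8, because it joined 2 places under 1 name. The gene itself, with 8 exons and 1273 exonic bases, lies at chr4:157962358-157966230 (- strand), and a single stretch of 1270 bases without introns lies at chr5:111671880-111673149 (+ strand). Such rows were rare, with exons on more than 1 chromosome in 31 of the 17494 rows. Reads that align to several places are not counted under the default setting of the counter, and Gapdh, Ppia and ribosomal protein genes are known for many processed copies in rodent genomes. The part of this in the levels below was not tested, and the level of Gapdh is therefore less certain than the others. A separate row, Gapdh-ps1, held a median of 4 counts and at most 17 in the 11 libraries. Of the rows with symbols close to the other members, Actbl2 and Tbpl2 had at most 1 count in any of the 11 libraries, and Tbpl1, a relative of Tbp, had a median of 849.

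The table of promoters of RefSeq (build GRCr8) held 6 of the 9 genes, all but Pgk1, Actb and Ywhaz. The 100 bases before the start of transcription are shown for 4 of them, 3 that carry the TATA box, which Tbp protein binds, and Tbp itself, which lacks these letters. The capitals mark TATAAA and the sequences are written 5′ to 3′ on the strand of the gene.
Gapdh, chr4:159652468-159652567 (-): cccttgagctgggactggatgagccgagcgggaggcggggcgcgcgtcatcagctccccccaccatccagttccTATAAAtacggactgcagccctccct
Ppia, chr14:85493116-85493215 (+): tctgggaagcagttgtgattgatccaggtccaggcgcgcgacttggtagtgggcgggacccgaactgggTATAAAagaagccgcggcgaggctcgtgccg
Rplp0, chr12:46718391-46718490 (-): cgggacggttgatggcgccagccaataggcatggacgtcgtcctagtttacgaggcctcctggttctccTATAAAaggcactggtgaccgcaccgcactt
Tbp, chr1:65136608-65136707 (+): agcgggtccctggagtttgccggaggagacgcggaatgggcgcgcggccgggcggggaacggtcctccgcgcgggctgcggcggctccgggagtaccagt
TATAAA began 26 bases before the start in Gapdh and 31 bases before it in Ppia and Rplp0, and it was absent on both strands of this window in Hprt1, Gusb and Tbp. It occurred on either strand in 5.78% of the 33469 windows of the same length. CCAAT was found in 1 of the 6 windows, that of Rplp0, against 17.1% of all windows, and GGGCGG in 3, those of Ppia, Hprt1 and Tbp, against 21.6%. The CArG box, the site of serum response factor, was in none of the 6 and in 0.553% of all windows. These matches describe the letters of the windows only.

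Levels of the 9 transcripts spanned a wide range. Per kilobase of exon, the median over the 11 libraries was 912 CPM for Actb, 551 for Ywhaz, 226 for Rplp0, 194 for Pgk1, 176 for Ppia, 57.8 for Hprt1, 11.3 for Tbp and 2.74 for Gusb. Gapdh stood at 83.4 CPM per kilobase over the whole length of its row. If all counts of the row are assigned to its exons on chromosome 4, which the joined row cannot show, it stood at 167 CPM per kilobase. In each of the 11 libraries Actb stood above Ywhaz, Ywhaz above Rplp0, Rplp0 above Pgk1, Hprt1 above Tbp, and Tbp above Gusb per kilobase. Pgk1, Ppia and Gapdh did not keep an order, with Pgk1 above Ppia in 6 of 11 libraries. Ppia stood above Gapdh in 5 of 11 when all counts of Gapdh were assigned to chromosome 4. Together the 9 genes took between 0.215% and 0.448% of the counts of each of the 11 libraries, and 0.165% in rat 6.

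**Figure D1:**
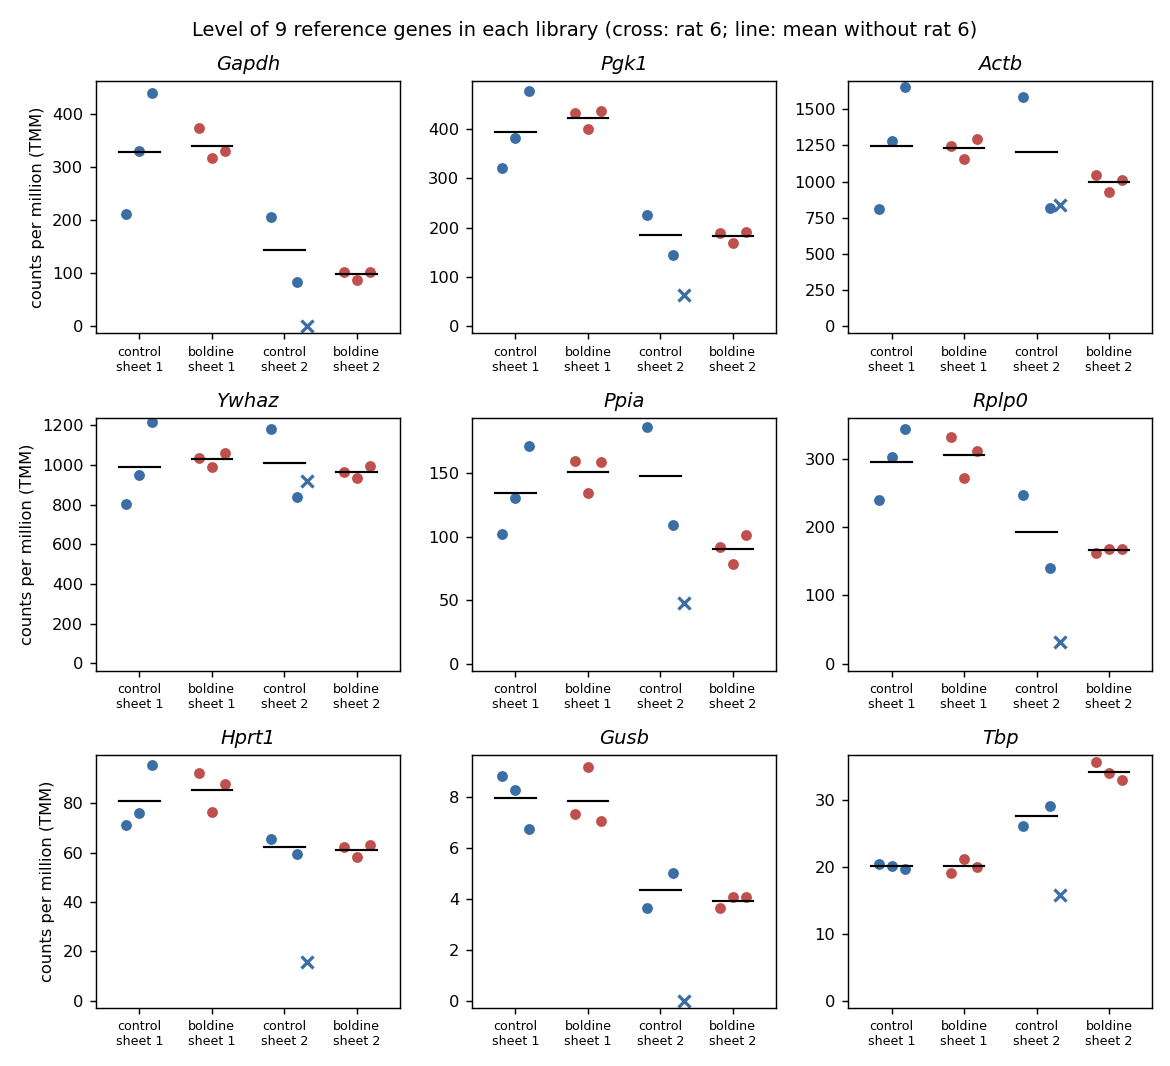
Level of each reference gene in CPM (vertical axis, from 0) in each library, by treatment and sheet (horizontal axis). Each dot is 1 rat, the cross is rat 6 and the line is the mean without rat 6. Gapdh in sheet 1 lay between 212 and 439 CPM and in sheet 2 between 82.7 and 206 CPM, while Ywhaz covered much the same range in both.

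The glycolytic enzymes varied most. In sheet 1 Gapdh stood at 212, 330 and 439 CPM in blast-control rats 1, 7 and 9, and at 372, 316 and 329 CPM in blast-boldine rats 20, 32 and 35. In sheet 2 it stood at 206 and 82.7 CPM in blast-control rats 4 and 5, and at 103, 87.5 and 103 CPM in blast-boldine rats 12, 17 and 19. The 2 sheets did not overlap, and within sheet 1 the blast-boldine libraries lay inside the range of the blast-control libraries. The highest of the 11 libraries was 5.31-fold above the lowest, and the coefficient of variation was 54.9%, against 2.14% from counting error alone.

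Pgk1 showed the same division. It stood at 321, 382 and 476 CPM in blast-control rats 1, 7 and 9 and at 431, 399 and 435 CPM in blast-boldine rats 20, 32 and 35 of sheet 1. In sheet 2 it stood at 225 and 144 CPM in blast-control rats 4 and 5 and at 189, 169 and 190 CPM in blast-boldine rats 12, 17 and 19. The range over the 11 libraries was 3.29-fold and the coefficient of variation 40.6%.

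Actb and Ywhaz, the most abundant of the 9, hardly differed between the sheets. Ywhaz lay between 803 and 1216 CPM over the 11 libraries, a 1.51-fold range with a coefficient of variation of 12.6%. Its 6 blast-boldine libraries lay between 935 and 1059 CPM (coefficient of variation 4.6%), inside the range of the 5 blast-control libraries of 803, 1182, 842, 949 and 1216 CPM. Actb stood at 808, 1586, 820, 1283 and 1652 CPM in blast-control rats 1, 4, 5, 7 and 9, and between 930 and 1294 CPM, with a median of 1099, in the 6 blast-boldine rats. For Actb the blast-control libraries thus included both the lowest and the highest values, and rats 4 and 9 stood highest for Ywhaz as well.

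Ppia and Rplp0 lay between these extremes. Ppia stood at 102, 187, 109, 131 and 172 CPM in blast-control rats 1, 4, 5, 7 and 9, and between 78.6 and 160 CPM, with a median of 118, in the blast-boldine rats. Its coefficient of variation was 27.6%. Rplp0 stood at 241, 247, 140, 303 and 344 CPM in the same blast-control rats and between 162 and 333 CPM, with a median of 220, in the blast-boldine rats, with a coefficient of variation of 30.5%. Rat 4 was the highest of all libraries for Ppia and stood above the other libraries of sheet 2 for Rplp0.

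The 3 least abundant references were Hprt1, Tbp and Gusb. Hprt1 lay between 58.1 and 95.6 CPM over the 11 libraries, and its coefficient of variation of 18.3% was the second lowest of the 9. In sheet 1 it lay between 71.2 and 95.6 CPM and in sheet 2 between 58.1 and 65.6 CPM. Gusb was at 8.85, 8.28 and 6.75 CPM in blast-control rats 1, 7 and 9 and at 7.35, 9.18 and 7.07 CPM in blast-boldine rats 20, 32 and 35. In sheet 2 it was at 3.65 and 5.02 CPM in blast-control rats 4 and 5 and at 3.64, 4.07 and 4.08 CPM in blast-boldine rats 12, 17 and 19. Between 37 and 403 counts stood behind these values, so that counting error alone gave a coefficient of variation of 11.5%, against 34.8% over the 11 libraries.

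Tbp was the only one of the 9 with higher levels in sheet 2. It was at 20.4, 20.2 and 19.8 CPM in blast-control rats 1, 7 and 9 and at 19.03, 21.1 and 20.1 CPM in blast-boldine rats 20, 32 and 35. In sheet 2 it was at 26.2 and 29.2 CPM in blast-control rats 4 and 5 and at 35.7, 34.0 and 33.0 CPM in blast-boldine rats 12, 17 and 19. Within sheet 1 it kept to 20.1 ± 0.69 CPM (mean ± SD, n = 6).

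The difference between sheets was set beside that of all genes. As log2 fold differences of sheet 2 from sheet 1 in edgeR, Gapdh was at -1.50, Pgk1 at -1.14, Gusb at -0.94, Rplp0 at -0.75, Hprt1 at -0.42, Ppia at -0.33, Actb at -0.18, Ywhaz at -0.02 and Tbp at 0.65. The median over 12529 genes was -0.00, and 8 of the 9 references lay below 0 against 6277 of 12529 genes. The sheets did not overlap for 5 of the 9 (Gapdh, Pgk1, Hprt1, Gusb and Tbp), and they did not overlap for 48.6% of all genes, so a division by sheet was not particular to references. In absolute size the difference of Gapdh exceeded that of 95% of all genes and that of Ywhaz exceeded that of 2.87%. The sheet held 79.9% of the variance of log2 CPM of Gapdh, 90.2% for Pgk1, 88.3% for Tbp, 9.12% for Actb and 0.425% for Ywhaz.

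Some other measures moved with the sheets as well. In 5 equal bins of genes by exon length, the median log2 difference of sheet 2 from sheet 1 ran from -0.22 in the shortest genes to 0.24 in the longest. By the length of their rows, 7 of the 9 references are shorter than the median length of 2209 bases of the middle bin, all but Gapdh and Gusb. The row of Gapdh has 2543 bases, of which 1273 are those of the gene on chromosome 4. The summed level of 3 microglial markers was between 219 and 239 CPM in sheet 1 and between 86.7 and 152 CPM in sheet 2. That of 4 markers of blood was between 164 and 232 CPM in sheet 1 and between 52.0 and 126 CPM in sheet 2. Of these 4 markers 3 lay lower in sheet 2. The 3 markers of oligodendrocytes and the 3 of astrocytes all lay lower in sheet 2 as well, but their summed levels overlapped, with 3101 to 5921 and 2270 to 4171 CPM for oligodendrocytes and 2431 to 2929 and 2189 to 2905 CPM for astrocytes in sheets 1 and 2. The 3 endothelial markers went the other way, with 58.0 to 85.5 CPM in sheet 1 and 163 to 227 CPM in sheet 2. The 4 markers of choroid plexus differed widely within both sheets, from 12.8 to 1129 CPM in sheet 1 and from 8.23 to 1172 CPM in sheet 2. The summed levels of the other 3 lists overlapped between sheets 1 and 2. They were 2507 to 3918 and 3259 to 3943 CPM for neurons, and 1031 to 1144 and 949 to 1310 CPM for hippocampal fields. For meninges they were 23.0 to 46.3 and 19.7 to 30.6 CPM. No marker in these 9 lists was at 0 in all of the 11 libraries. Their part in the levels of the references was not tested, and in tissue RNA fewer cells of a type and less RNA per cell cannot be told apart.

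Spread was ranked by the SD of log2 CPM over the 11 libraries. It was 0.17 for Ywhaz, 0.25 for Hprt1, 0.34 for Actb, 0.36 for Tbp, 0.40 for Ppia, 0.46 for Rplp0, 0.51 for Gusb, 0.63 for Pgk1 and 0.91 for Gapdh. The median of the 9 was 0.40 and that of all 12529 genes was 0.34. Of all genes 15.7% varied less than Ywhaz, 31.8% less than Hprt1, 49.5% less than Actb and 95.3% less than Gapdh. Among genes within 2-fold of its own mean level, 24.1% of 245 varied less than Ywhaz and 97.0% of 1948 varied less than Gapdh.

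Within sheets the order was another. The pooled SD within sheets was 0.13 for Hprt1 and for Tbp, 0.18 for Ywhaz, 0.19 for Gusb, 0.21 for Pgk1, 0.24 for Rplp0, 0.34 for Actb, 0.37 for Ppia and 0.43 for Gapdh, beside a median of 0.19 over all genes. Tbp, whose 2 sheets stood far apart, was thus among the tightest within them, and Actb, which hardly differed between sheets, was among the widest. Part of the SD of Gusb is counting error, which alone gave it a coefficient of variation of 11.5% over the 11 libraries. Among the 9, Ywhaz stood low and Gapdh highest by both measures. Of all genes 48.1% varied less than Ywhaz within sheets and 91.0% less than Gapdh.

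**Figure D2:**
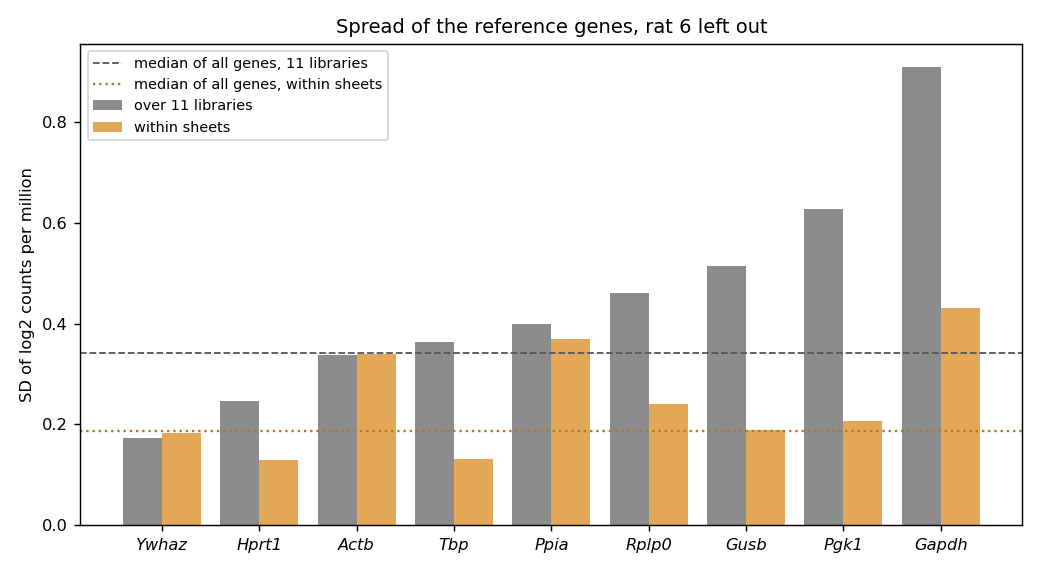
SD of log2 CPM of each reference gene (vertical axis, from 0) over the 11 libraries without rat 6 (grey) and pooled within the 2 sheets (orange), with the medians of all genes as dashed and dotted lines. Gapdh has the tallest bar of both kinds (0.91 and 0.43), and the bars of Ywhaz are of nearly the same height (0.17 and 0.18).

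Rat 6 held too few counts to place most of the 9. It had 58 counts of Ywhaz (919 CPM, exact 95% Poisson interval 698 to 1188) and 53 of Actb (840 CPM, 629 to 1098), both within the range of the other 11 libraries. By contrast Gapdh had 0 counts, under the floor of 3 counts (47.5 CPM), with an exact 95% Poisson interval that ends at 58.4 CPM, below the 82.7 CPM of the lowest other library. At the mean level of the 5 other blast-control libraries 16.0 counts of Gapdh would have been found in rat 6, and at the level of the lowest library 5.22 counts. Rplp0 had 2 counts (31.7 CPM, 3.84 to 114), so that its interval also lay below all 11 libraries, whose lowest stood at 140 CPM. Pgk1 had 4 counts, Ppia 3, Hprt1 and Tbp 1 each and Gusb 0, and the intervals of these 5 reached into the range of the other libraries. These intervals cover counting error only. Hsp90ab1 and Ppig had 1182 and 91 counts in rat 6, at 15.8 CPM each, against at most 2672 and 541 CPM in the other 11 libraries. Rat 6 thus stood apart in more than depth, and the part of this in its low counts of Gapdh and Rplp0 was not tested.

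The comparison of the groups asked whether the references stayed level under boldine. None of the 9 passed the test in edgeR with all 12 libraries, where 0% of 12325 genes had an adjusted p under 0.05 and 1.07% an unadjusted p under 0.05. The log2 fold changes of blast-boldine over blast-control lay between -0.13 and 0.24, with a median of 0.016 over the 9 and of 0.0046 over all genes tested, and each had an adjusted p of 0.99996. The smallest unadjusted p among them was 0.26, for Tbp. A missing call does not show that a gene was stable, and the 95% intervals set what the data allow.

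These intervals were narrow for Ywhaz and wide for Gapdh. With all 12 libraries the log2 fold change of Ywhaz was 0.02 ± 0.13 (SE), with a 95% interval of -0.27 to 0.30, or 0.83-fold to 1.23-fold. For Gapdh it was -0.06 ± 0.54, with an interval of -1.23 to 1.12, or 0.427-fold to 2.17-fold. The intervals of the others were -0.52 to 0.37 for Actb, -0.38 to 0.50 for Hprt1, -0.20 to 0.69 for Tbp, -0.67 to 0.40 for Ppia, -0.78 to 0.51 for Gusb, -0.70 to 0.76 for Rplp0 and -0.72 to 0.93 for Pgk1. The interval of Gapdh reached beyond 2-fold in both directions, and those of the other 8 lay within 2-fold.

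Without rat 6, 5 blast-control libraries were compared with 6. The log2 fold change of Gapdh was then -0.22 (-1.29 to 0.84), and those of Ywhaz and Hprt1 were -0.00 (-0.27 to 0.26) and -0.01 (-0.35 to 0.34). Actb was at -0.15, Pgk1 at -0.04, Ppia at -0.22, Rplp0 at -0.12, Gusb at -0.15 and Tbp at 0.23, so that 1 of the 9 lay above 0, against 5 with rat 6. Again 0 of the 9 were called, with 0% of 12529 genes at an adjusted p and 1.4% at an unadjusted p under 0.05. With mean log2 CPM compared by exact permutation of all assignments of the rats to the groups (two-sided), p lay between 0.361 for Ppia and 0.948 for Hprt1. With all 12 libraries p of this test lay between 0.225 for Tbp and 0.972 for Actb. There the difference of Gapdh was 1.53, which depends on the prior count of 2 in log2 CPM, since rat 6 had 0 counts of Gapdh.

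When the sheet was added as a covariate to the fit of 11 libraries, the intervals of the genes that differed between sheets narrowed. That of Gapdh was -0.70 to 0.26, that of Pgk1 -0.20 to 0.30, that of Hprt1 -0.15 to 0.21 and that of Tbp -0.06 to 0.31. For Ywhaz it was -0.23 to 0.23 and for Actb -0.52 to 0.25, little changed from before. None of the 9 was called, beside 0% of genes at an adjusted p and 5.35% at an unadjusted p under 0.05. The common dispersion, 1 value estimated over all genes, was 0.0994 without the sheet and 0.0241 with it. Since the sheets were picked by the expression of all genes in these libraries, narrower intervals and a lower dispersion were favoured in advance. Intervals and p-values with the sheet or within sheets hold only given this division.

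The values within sheets showed where the groups met. In sheet 1 the 3 blast-boldine and 3 blast-control libraries overlapped for all 9 references, beside 6.95% of all genes with no overlap. In sheet 2, with 3 blast-boldine and 2 blast-control libraries, Ppia (78.6 to 101 against 109 and 187 CPM) and Tbp (33.0 to 35.7 against 26.2 and 29.2 CPM) did not overlap. That was 2 of 9 beside 22.3% of all genes, a share near the background. For Tbp the exact permutation p within sheets was 0.065 over 200 assignments without rat 6 and 0.06 over 400 with it, and for the other 8 it was at least 0.28.

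**Figure D3:**
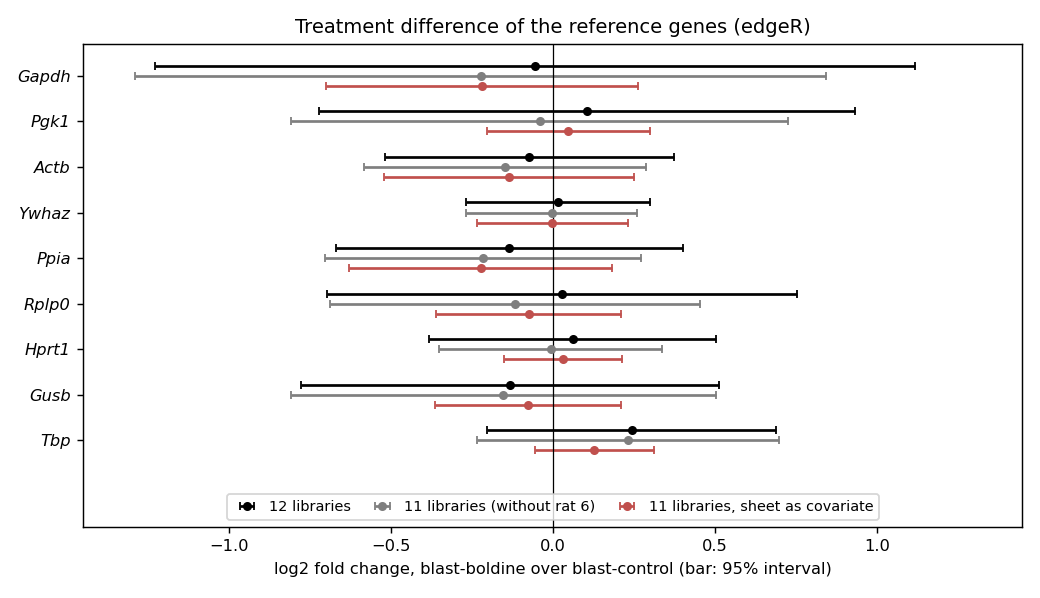
Log2 fold change of blast-boldine over blast-control (horizontal axis) of each reference gene with its 95% interval, for all 12 libraries (black), 11 libraries (grey) and 11 libraries with the sheet as covariate (red). All intervals include 0. That of Gapdh is the widest in each of the 3 fits, and those of Ywhaz stay between -0.27 and 0.30.

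Ratios between references within a library do not depend on its size factor. The SD of the log2 ratio over the 11 libraries was lowest for Actb and Ywhaz, at 0.19, with Actb between 0.974-fold and 1.36-fold of Ywhaz. It was 0.22 for Pgk1 and Rplp0 and for Actb and Ppia. The highest of the 36 pairs was Gapdh and Tbp at 1.26, where the ratio of Gapdh to Tbp ran from 2.57 to 22.1. Gapdh and Pgk1 were at 0.33.

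The ratio of Gapdh to Actb, both in wide use as loading controls, fell into 2 bands. In counts it was 0.262, 0.257 and 0.266 in blast-control rats 1, 7 and 9 and 0.299, 0.274 and 0.255 in blast-boldine rats 20, 32 and 35. In sheet 2 it was 0.130 and 0.101 in blast-control rats 4 and 5, 0.0986, 0.0940 and 0.102 in blast-boldine rats 12, 17 and 19, and 0 counts of Gapdh against 53 of Actb in rat 6. The treatments overlapped in sheet 1, rat 4 stood highest in sheet 2, and the bands of the 2 sheets did not meet. The SD of the log2 ratio was 0.08 over sheet 1, 0.18 over sheet 2 without rat 6 and 0.72 over the 11 libraries.

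The mean SD of the log2 ratios of a gene to the 8 others, here called M, summarised these pairs. Over the 11 libraries M was 0.39 for Hprt1, 0.40 for Rplp0, 0.43 for Actb and for Ppia, 0.44 for Ywhaz, 0.49 for Pgk1, 0.55 for Gusb, 0.70 for Gapdh and 0.78 for Tbp. By this measure, which rewards genes that move with the rest of the panel, Ywhaz stood in the middle of the 9, although its own level varied least. Within sheet 1 M lay between 0.15 for Pgk1 and Ywhaz and 0.37 for Gusb. With rat 6 the median M was 0.98 in place of 0.44, and that of Gapdh 2.63, a value set by its 0 counts there.

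**Figure D4:**
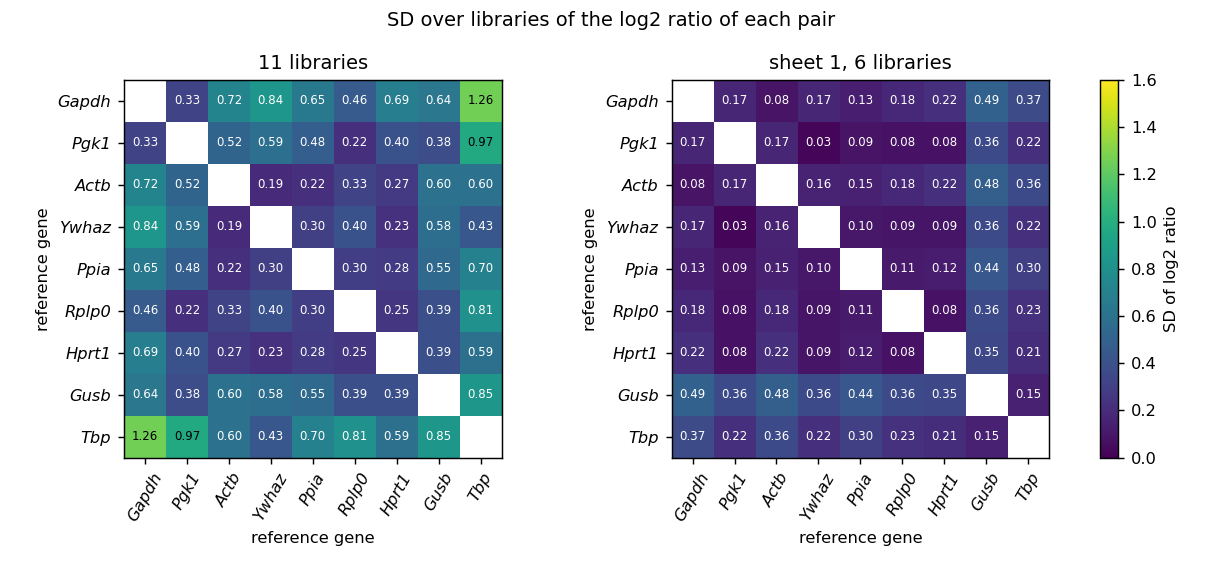
SD of the log2 ratio of each pair of reference genes over the 11 libraries (left) and over the 6 libraries of sheet 1 (right), as numbers and as colour on 1 scale from 0. Over the 11 libraries the pairs of Gapdh or Pgk1 with Tbp stand highest (1.26 and 0.97), and in sheet 1 the pair of Gapdh and Gusb does (0.49).

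The choice of denominator was then tried on 3 transcripts whose proteins the study blotted in hippocampus against GAPDH: Grm2 and Grm3, which encode metabotropic glutamate receptors, and Grin2b, which encodes a subunit of the NMDA receptor. With Gapdh as denominator and without rat 6, the mean log2 ratio of blast-boldine minus blast-control was -0.32 for Grm2, 0.17 for Grm3 and 0.37 for Grin2b, with exact permutation p of 0.524, 0.675 and 0.600 (adjusted over the 3 targets, 0.675 for each). With rat 6, in which Gapdh had 0 counts and Grm2 had 1, the values were -1.86, -1.50 and -1.52 (adjusted exact p 0.727 for each), and they depend on the prior count of 2 and are not measurements of a ratio.

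Without rat 6, the difference of Grm2 across the 9 denominators lay between -0.80 (Tbp) and -0.32 (Gapdh), all below 0. The 9 ratios share the numerator Grm2, so their common sign is not 9 separate results. Without a denominator the difference of Grm2 was -0.60 (exact permutation p 0.0173, adjusted over the 3 targets 0.0519). With rat 6 and no denominator it was -0.33 (exact permutation p 0.357). Without rat 6, that of Grm3 across the denominators lay between -0.31 and 0.17 and that of Grin2b between -0.11 and 0.37. The lowest value was against Tbp and the highest against Gapdh in both. The exact permutation p of Grm2 was 0.0152 against Ywhaz, 0.0281 against Hprt1 and 0.524 against Gapdh. Adjusted over the 3 targets of each denominator, the exact p of Grm2 was 0.0455 against Ywhaz without rat 6 and 0.0844 against Hprt1, and with rat 6 it was 0.903 and 0.0455. Within the sheets, which were picked from these data, and without rat 6 it was 0.015 against Tbp and 0.075 against Ywhaz. There it was 0.135 against Hprt1 and 0.045 with no denominator. Adjusted over all 27 ratios the smallest exact p was 0.380 without rat 6, 0.409 with it, and 0.135 within sheets, so that none passed the threshold over that family. Of the SD of the ratio of Grm2 in the blast-boldine libraries, that to Gapdh was 0.86 and that to Ywhaz 0.42.

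**Figure D5:**
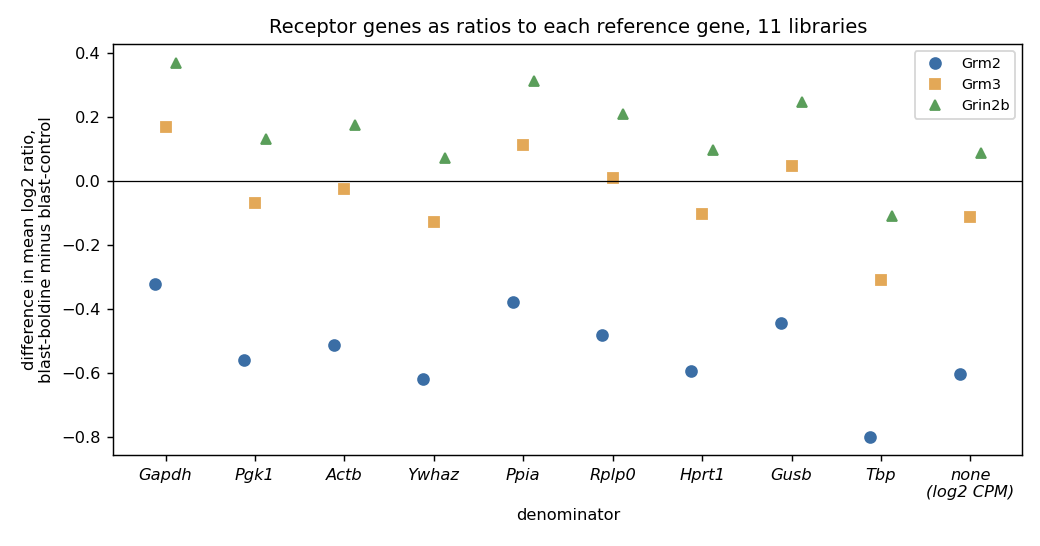
Difference in mean log2 ratio, blast-boldine minus blast-control (vertical axis), of Grm2, Grm3 and Grin2b to each reference gene (horizontal axis) and of their log2 CPM without a denominator, over the 11 libraries. Grm2 is below 0 throughout, from -0.80 to -0.32, and Grm3 and Grin2b lie on both sides of 0.

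The genes most like each reference were named by the lowest SD of the log2 ratio to it over the 11 libraries. For Gapdh they were Grina, Rps27 and Atp6v0e2 (0.11, 0.13 and 0.15), with log2 differences of sheet 2 from sheet 1 of -1.56, -1.39 and -1.65, and Pgk1 came 261st. Pgk1 was most like Gabarap, Ywhaq and Atp6v1b2 (0.07 to 0.08), and Rplp0 most like the elongation factor Eef2, Slc35c2 and Mmd2 (0.07 to 0.08). Actb was most like Slc17a7, a vesicular glutamate transporter, Atp1b1 and Phyhip (all 0.11), and Ywhaz like Slc7a14, Enc1 and Nsg2 (0.07 to 0.08). Hprt1 was most like Atp5f1c, Atp6v1c1 and Lmbrd1 (0.05 to 0.06), Ppia like Selenow, Mlf2 and Dynll1 (0.13 to 0.15), Gusb like Med18, Adhfe1 and Slc29a1 (0.13 to 0.15) and Tbp like Cfap70, Sh3kbp1 and Brap (0.05 to 0.07). None of the 9 had another reference among its 3 nearest genes.

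Genes of the same processes were described by lists, none of which had a member called in edgeR with 12 libraries. Of the 14 other glycolytic enzymes tested all 14 lay lower in sheet 2, with a median log2 difference of -0.63. Their treatment differences had a median of -0.03, from -0.17 for Pkm, which makes pyruvate, to 0.08 for Ldha, a subunit of lactate dehydrogenase, which stood at -0.0044 without rat 6. Hk1, the hexokinase that opens the pathway, had an SD of log2 CPM of 0.07 over the 11 libraries, and 0.511% of genes varied less. It lay between 481 and 570 CPM, where Gapdh of the same pathway ranged 5.31-fold.

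The actin list held 14 genes, 11 of them lower in sheet 2, with a median treatment difference of 0.015 (-0.054 without rat 6), from -0.08 for Tmsb10, which binds actin monomers, to 0.20 for Arpc2. Actr2, like Arpc2 a subunit of the Arp2/3 complex, varied least (SD 0.10). Of the 5 other 14-3-3 genes tested 3 lay higher in sheet 2, and Ywhab varied least (SD 0.14). Their treatment differences ran from -0.19 for Ywhah to 0.06 for Ywhab, and without rat 6, in which it had 106 counts, Ywhah stood at 0.04. The 15 other prolyl isomerases ran from -0.54 for Ppig to 0.19 for Ppid, and without rat 6, in which Ppig had 91 counts, Ppig stood at 0.21. Ppie varied least among them (SD 0.13).

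Of 16 other genes of the basal transcription machinery 10 lay higher in sheet 2, as Tbp did, and the median treatment difference was 0.06, from -0.20 for Taf1 to 0.26 for Gtf2a1. Taf1 had 53 counts in rat 6 and stood at 0.16 without that library. Taf2, a partner of Tbp in the same complex, varied little (SD 0.09), with 1.41% of genes below it. The 15 lysosomal hydrolases had 13 members lower in sheet 2, as Gusb was, with a median of -0.81. Their treatment differences ran from -0.10 for Glb1 to 0.15 for Galc, which also varied least (SD 0.12). The 10 genes of purine metabolism ran from -0.18 for Aprt to 0.22 for Pnp, and Ampd3 varied least (SD 0.14).

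Of the ribosomal protein genes 71 were tested, with a median treatment difference of -0.08, from -0.71 for Rpl37 to 0.38 for Rpl26, and 1 of them had an unadjusted p under 0.05, beside 1.07% of all genes. Without rat 6 Rpl37 stood at -0.25. Of 26 other genes in use as references, Reep5 varied least (SD 0.13, with 193 to 253 CPM). Tfrc was highest between treatments at 0.21 and Hsp90ab1 lowest at -1.24 (unadjusted p 0.0791, adjusted p 0.99996 in edgeR). This value rested on rat 6, in which Hsp90ab1 held 1182 counts at 15.8 CPM each, against at most 2672 CPM in the other 11 libraries. Without rat 6 the log2 fold change of Hsp90ab1 was 0.10.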

How the data were processed

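RNA of 12 rats was sequenced as stranded, rRNA-depleted total RNA libraries. According to the study's methods, the authors used HTStream to remove PCR duplicates and trim, and STAR 2.7.11b to align to mRatBN7.2 with up to 20 alignments per read, and counted them on RefSeq exons by gene name and strand with featureCounts of Subread 2.0.1. The deposited values are these raw counts, without normalization. Each column is 1 library, and groups were taken from the treatment in the labels. The log2 CPM used here add a prior count of 2.

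Treatments were compared in edgeR 4.0.16 by its quasi-likelihood F test (R 4.3.3; TMM, filterByExpr with a minimum of 10 counts, all 12 libraries, treatment as the only term, two-sided, Benjamini-Hochberg adjustment over all genes tested at 0.05). Single genes and ratios were compared by exact permutation tests over 924 assignments, 462 without rat 6, and 400 or 200 within sheets (Python 3.11.15, numpy 2.4.6, pandas 2.3.3, scipy 1.17.1, matplotlib 3.10.9). Percentages of counting error are Poisson errors. Alternatives were DESeq2 1.42.0, limma-voom (limma 3.58.1), RLE and upper-quartile size factors, no filter, the sheet as covariate, other denominators, scaling by the references and leaving out each library. The edgeR fit was tested on simulated counts.

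The 9 genes, the other lists and the markers were chosen with earlier results of these data known. Beside the 9, the text names the receptor genes blotted by the study, the gene with the highest and the lowest log2 fold change and the one with the lowest SD of each list, the 3 genes most like each reference, and rows whose symbol extends that of a reference. No protein sequences were compared. A gene that this rule names is not reported here.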

Additional observations from a re-analysis of the deposited data

Results flagged for a closer look

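The 9 genes were tested for a library far from the rest in 27 groups (blast-boldine, blast-control, and blast-control without rat 6 for each gene, on log2 CPM), of which 3 were flagged. Chance flags about 1 in 20 groups. All 3 concerned rat 6 among the 6 blast-control libraries. For Gapdh the gap of rat 6 to its nearest neighbour was 0.797 of the range of the group, with 0 counts in that library. For Gusb it was 0.80, also with 0 counts, but there the level of the lowest other library corresponds to 0.230 counts in rat 6, so that a count of 0 carries no information on Gusb. For Hprt1 it was 0.735, with 1 count, where the level of the lowest other library corresponds to 3.67 counts. No library was flagged in the blast-boldine group or among the 5 other blast-control libraries.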

How the results depend on the processing

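No gene had an adjusted p under 0.05 in the comparison of treatments or in any of the 24 other settings, and none of the 9 references had an unadjusted p under 0.05 in any of them. The number of genes with an unadjusted p under 0.05, 132, became 254 without the filter, 85 in DESeq2 and 474 with the sheet as covariate. Without rat 6 it was 670 with the sheet, 279 in DESeq2, 22 with scaling by Gapdh alone (77 with the sheet) and 81 with scaling by all 9 (221 with the sheet). Scaling by references was planned on all 12 libraries, could not be run there since Gapdh and Gusb had 0 counts in rat 6, and was run without it, chosen after seeing the data, as was DESeq2 without rat 6. Without rat 6, scaling by Gapdh moved the median log2 fold change of all genes to 0.29, and with the sheet added it was 0.022. Leaving out 1 library gave between 85 (rat 12 or 17) and 214 (rat 5) genes, with 87 without rat 1.

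The signs of the small log2 fold changes depended on the setting. Gapdh was at 0.0091 in DESeq2, Ywhaz at -0.012 with upper-quartile factors and, without rat 6, at -0.0013 with the sheet and -0.0040 in DESeq2. Actb was at 0.25 with scaling by Gapdh and 0.054 with the sheet added. Rplp0 was at -0.048 in limma-voom and -0.030 with the sheet, and without rat 6 at -0.074 with the sheet, -0.12 in DESeq2 and -0.042 and -0.019 with scaling by all 9, without and with the sheet. In DESeq2 without rat 6 Pgk1 was at -0.038 and Hprt1 at -0.0054. Leaving out each library gave -0.27 to 0.25 for Gapdh, -0.040 to 0.32 for Pgk1, -0.15 to 0.051 for Actb, -0.013 to 0.086 for Ywhaz, -0.12 to 0.18 for Rplp0, -0.0090 to 0.18 for Hprt1 and -0.30 to 0.0077 for Gusb. Ppia and Tbp kept their sign in all 24 settings, but Ppia was at -0.00044 without rat 4. The difference of Ppia in mean log2 CPM was 0.029 over all 12 libraries (exact permutation p 0.939), 0.18 in sheet 1 and -0.66 in sheet 2 without rat 6. The cause of these turns was not tested.

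The median SD of log2 CPM of the 9, 0.68 over 12 libraries, was 0.40 without rat 6, 0.19 in sheet 1 and 0.23 in sheet 2 without rat 6, and the median M of 0.98 was 0.44 without rat 6, 0.18 in sheet 1, 0.28 in sheet 2 without rat 6, 0.44 in blast-boldine and 0.49 in blast-control rats without rat 6. With 12 libraries, the difference of Grm2 was -0.69 against Hprt1 and -0.74 against all 9 (exact permutation p 0.0152 and 0.0260). Adjusted over the 3 targets, the exact p was 0.0455 and 0.0779. Grm2 and Hprt1 had 1 count each in rat 6, and Gapdh and Gusb had 0. With a prior count of 0.5 the value against all 9 was -0.82. Without rat 6 the values were -0.59 and -0.52 (exact permutation p 0.0281 and 0.0519). With 12 libraries, the difference of Grm3 was 0.037 against Actb and 0.0014 against Ppia, and that of Grin2b 0.019 against Actb. Leaving out each library with Gapdh as denominator gave -2.0 to 0.17 for Grm3 and -2.12 to 0.37 for Grin2b, the highest without rat 6. No paired analysis was possible because the groups share no replicate numbers. Depth limits rat 6 most, where 3 counts equal 47.5 CPM. It also limits Gusb, which had between 37 and 403 counts in the other 11 libraries.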
